A study of Saccharomyces cerevisiae with 16 samples.

Results

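The 10 genes described here encode the G1 cyclins of budding yeast and the proteins around them at Start, the commitment point of the cell cycle in late G1. They were found by matching the array probes to the systematic names of CLN1 (YMR199W), CLN2 (YPL256C), CLN3 (YAL040C), PCL1 (YNL289W), PCL2 (YDL127W), CLB5 (YPR120C), CLB6 (YGR109C), SWI4 (YER111C), WHI5 (YOR083W) and YOX1 (YML027W). All 10 were found among the 6227 genes on the array, each with 1 probe printed as 2 spots, and all 10 were among the 6165 genes tested. No probe of these genes was saturated on any array. CLB6 was well above background on 13 of 16 arrays and the other 9 genes on all 16.

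At Start the cyclin Cln3, bound to the kinase Cdc28, acts on SBF, a transcription factor made of Swi4 and Swi6, and on its repressor Whi5. SBF then switches on CLN1, CLN2, PCL1 and PCL2, while the related factor MBF switches on CLB5, CLB6 and genes of DNA synthesis. Cln1 and Cln2 feed back on the same switch and drive budding, Pcl1 and Pcl2 are cyclins of the kinase Pho85, Clb5 and Clb6 start DNA replication, and Yox1 is a homeodomain repressor of genes of the M/G1 boundary, CLN3 and SWI4 among them. Hog1, the kinase that the study varied, is a MAP kinase that yeast uses against osmotic shock, and when activated by such stress it is known to delay passage through G1.

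The samples were total RNA from 4 Saccharomyces cerevisiae lines, taken at 0, 45, 90 and 150 min after methionine was removed from the medium, with 1 single-colour array for each line and time. Line WT carried wild-type HOG1 and lines H and 170 mutated HOG1, each gene cloned behind the MET3 promoter (shut by methionine, opened by its removal) and placed in hog1∆ cells. Line vec, the control, was JBY13 cells with an empty plasmid. The labels of the mutated lines conflict: the source field gives D170A for H, where title and description say only H, and gives D170A+F318L for 170, where the description says D170A. Neither line is given a mutation here, and each is called a mutant line because every label that names its gene names a change. All 4 lines lost methionine, line vec included, which received no HOG1 on its plasmid. The labels do not say whether a line is 1 clone.

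Levels are log2 of the processed signal relative to the 75th percentile of the same array, so that 0 is the level of a gene at that percentile. Probes differ in brightness, and levels of different genes were not set against each other. The 75th percentile lay between 4926 and 11306 signal units, and 93.4% to 98.8% of the spots of an array were well above background. The 2 spots of a Start gene differed by a median of 0.059 log2 units, with 0.24 at the 95th percentile and 0.94 at most, for CLB6. HOG1 itself stood between -2.32 and -1.67 in line vec, between 1.51 and 1.89 at 0 min in the other 3 lines, and between 5.41 and 6.16 in them at later times. MET3, whose promoter drove these genes, rose by 5.18 ± 0.27 log2 units over the later times in 4 of 4 lines (limma adjusted p = 7.44e-09). Slide 1 held the 8 arrays of WT and H and slide 2 the 8 arrays of vec and 170. There were no replicate arrays. In the limma fits the 4 lines served as repeats of a change with time and the 3 later times as repeats of a difference between lines, so a p-value measures how steady a difference was over lines or times and not the spread between cultures.

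As means over the 4 lines, the G1 cyclin genes CLN1 and CLN2 and the Pho85 cyclin gene PCL1 rose 4.71-, 4.85- and 10.5-fold after methionine removal. CLN3 rose 6.89-fold, mostly within 45 min. The lines differed: CLN3 rose by 0.81 log2 units in vec and by 3.33 to 3.66 in the HOG1 lines, and PCL1 by 1.06 and by 4.01 to 4.46. All 10 Start genes were higher over the later times than at 0 min, against 34.8% of all genes tested. PCL2 rose by only 0.04 in vec, and the WHI5 call was lost in 4 of 15 alternatives. At 45 min alone 8 were already higher (all genes, 31.8%), and from 45 to 90 min 3 rose further (all genes, 13.9%). The median of the 10 genes was 2.26 log2 units above 0 min, where the median of all genes fell by 0.11. RNA was taken from whole cultures, in which fewer cells of a cell-cycle stage and less RNA per cell cannot be told apart.

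CLN3 encodes the upstream cyclin of the switch. In line vec its level was -3.28, -2.22, -2.63 and -2.55 at 0, 45, 90 and 150 min. In line WT it was -5.57, -2.18, -2.27 and -2.23. In line H it was -5.33, -1.76, -2.00 and -2.24, and in line 170 it was -5.66, -2.31, -2.09 and -1.62. Each of the 3 HOG1 lines was low at 0 min and stood at or near its later level by 45 min, while vec started higher and moved less, and at the later times the lines overlapped. The rise over the later times was 2.78 ± 0.35 log2 units (SE, limma adjusted p = 1.23e-05, 4 of 4 lines). From 45 to 90 min CLN3 moved by -0.13 ± 0.43, which was not called (limma adjusted p = 0.855).

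CLN1 and CLN2 are the late G1 cyclins that CLN3 acts upon. CLN1 stood at -1.49, -0.47, 0.18 and 0.19 in vec and at -3.49, -1.74, -0.01 and -0.28 in WT at 0, 45, 90 and 150 min. It stood at -3.78, -2.47, -0.79 and -1.43 in H and at -4.20, -2.57, -1.15 and -1.52 in 170. At every time vec was highest, WT next, then H, then 170, and in the 3 HOG1 lines CLN1 was highest at 90 min. Its rise over the later times was 2.23 ± 0.19 log2 units (limma adjusted p = 3.01e-07, 4 of 4 lines), and the step from 45 to 90 min was 1.37 ± 0.23 (limma adjusted p = 0.0030). Without line H that step was 1.26 with an adjusted p of 0.0534, and on the slide of vec and 170 alone it was not called.

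The level of CLN2 was -2.84, -1.61, -1.70 and -1.24 in vec and -5.16, -3.20, -1.92 and -1.92 in WT. It was -5.52, -3.68, -2.73 and -3.02 in H and -5.59, -3.61, -2.75 and -2.65 in 170. As for CLN1, vec lay above WT and WT above both mutant lines at all 4 times, while H and 170 lay within 0.38 of each other and changed places. CLN2 rose by 2.28 ± 0.22 over the later times (limma adjusted p = 8.80e-07, 4 of 4 lines). The step from 45 to 90 min, 0.75 ± 0.26, missed the threshold (limma adjusted p = 0.0571).

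PCL1 and PCL2 encode cyclins that bind Pho85 in G1. PCL1 stood at -0.90, -0.06, 0.34 and 0.20 in vec and at -4.68, -1.27, 0.48 and 0.13 in WT. It stood at -5.17, -2.23, -0.35 and -0.90 in H and at -5.35, -2.32, -0.62 and -0.93 in 170. In vec PCL1 was high at every time, including 0 min, and in the HOG1 lines it climbed from far below to a highest level at 90 min. The rise over the later times was 3.40 ± 0.43 log2 units (limma adjusted p = 1.12e-05, 4 of 4 lines). It measured 1.06 in vec, 4.46 in WT, 4.01 in H and 4.06 in 170.

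PCL2 stood at -3.92, -4.01, -3.96 and -3.68 in vec and at -5.14, -4.58, -3.52 and -3.75 in WT. It stood at -5.24, -4.66, -3.82 and -4.37 in H and at -5.94, -5.07, -4.26 and -4.76 in 170. Vec hardly moved, and the 3 HOG1 lines were highest at 90 min. PCL2 rose by 0.86 ± 0.18 (limma adjusted p = 8.64e-04, 4 of 4 lines, with 0.04 in vec), and this was not called on the slide of vec and 170 alone (0.64, adjusted p = 0.132). Its step from 45 to 90 min was 0.69 ± 0.22 (limma adjusted p = 0.0419), and the call was lost without WT, H or 170 (adjusted p = 0.220, 0.201 and 0.171), on the slide of vec and 170 alone (0.709), with median scaling (0.0600) and with quantile normalization (0.0518).

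CLB5 and CLB6 encode the S-phase cyclins. CLB5 stood at -2.05, -1.10, -1.23 and -1.40 in vec and at -2.06, -1.72, -1.21 and -1.77 in WT. It stood at -2.22, -1.90, -1.60 and -1.94 in H and at -2.07, -1.80, -1.59 and -1.96 in 170. At 0 min the 4 lines lay within 0.17 of each other, and the later levels reached their highest at 45 min in vec and at 90 min in the HOG1 lines. CLB5 rose by 0.50 ± 0.091 over the later times (limma adjusted p = 2.78e-04, 4 of 4 lines).

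At 0 min the CLB6 spots of WT, H and 170 were dim, not well above background, and measured -8.73, -9.61 and -10.06, while in vec CLB6 measured -6.12 and was well above background. At 45, 90 and 150 min it stood at -2.95, -3.03 and -3.49 in vec and at -4.17, -2.64 and -3.70 in WT. It stood at -5.21, -3.52 and -4.52 in H and at -5.66, -4.30 and -4.62 in 170. For the dim arrays the 0 min level was raised to a floor, the lowest signal well above background on that array. This floor is the signal of a single spot and not a detection limit, so it gives no strict bound. With it CLB6 rose 28.9-fold in WT, 13.6-fold in H and 9.55-fold in 170, and the measured rise in vec was 7.79-fold. Over the 4 lines the mean rise was then 13.1-fold (3.71 log2 units), which was not itself tested. The fit on the measured values gave 4.64 log2 units (limma adjusted p = 1.01e-07, 4 of 4 lines). That fit ranged from 2.33 to 5.21 over the alternatives, and its lowest value lay below the rise obtained with the floor.

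SWI4 encodes the DNA-binding part of SBF, WHI5 the repressor that holds SBF back, and YOX1 a repressor that SBF itself induces. SWI4 stood at -3.07, -2.07, -2.56 and -2.65 in vec and at -3.17, -1.91, -1.73 and -1.90 in WT. It stood at -3.12, -2.13, -1.88 and -1.95 in H and at -3.63, -2.79, -2.22 and -2.21 in 170. The rise of SWI4, 1.08 ± 0.14 (limma adjusted p = 1.64e-05, 4 of 4 lines), was largest at 90 or 150 min in the HOG1 lines, while in vec the level was highest at 45 min.

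WHI5 kept within -5.99 and -4.93 on all 16 arrays, with a median of -5.50. It stood at -5.85, -5.31, -4.93 and -5.36 in vec, at -5.55, -5.43, -5.19 and -5.28 in WT, at -5.84, -5.45, -5.55 and -5.69 in H and at -5.72, -5.79, -5.20 and -5.99 in 170. The lines overlapped and its range was the narrowest of the 10 genes. WHI5 was 0.31 ± 0.11 higher over the later times (limma adjusted p = 0.0202), a call that was lost without WT (adjusted p = 0.0571) and without vec (0.20, adjusted p = 0.140), with normexp background correction (0.16, 0.116) and on the slide of vec and 170 alone (0.138).

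YOX1 stood at -3.28, -1.87, -1.48 and -1.43 in vec and at -5.62, -3.45, -1.56 and -1.83 in WT. It stood at -5.39, -4.22, -2.11 and -2.56 in H and at -5.88, -4.16, -2.80 and -2.79 in 170. Vec was highest at all 4 times, and H and 170 lay below WT at 45, 90 and 150 min. YOX1 rose by 2.52 ± 0.24 over the later times (limma adjusted p = 1.004e-06, 4 of 4 lines), and its step from 45 to 90 min was 1.44 ± 0.30 (limma adjusted p = 0.0067). That step was not called without H (1.21, adjusted p = 0.0846) or without 170 (1.46, adjusted p = 0.0647).

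**Figure D1:**
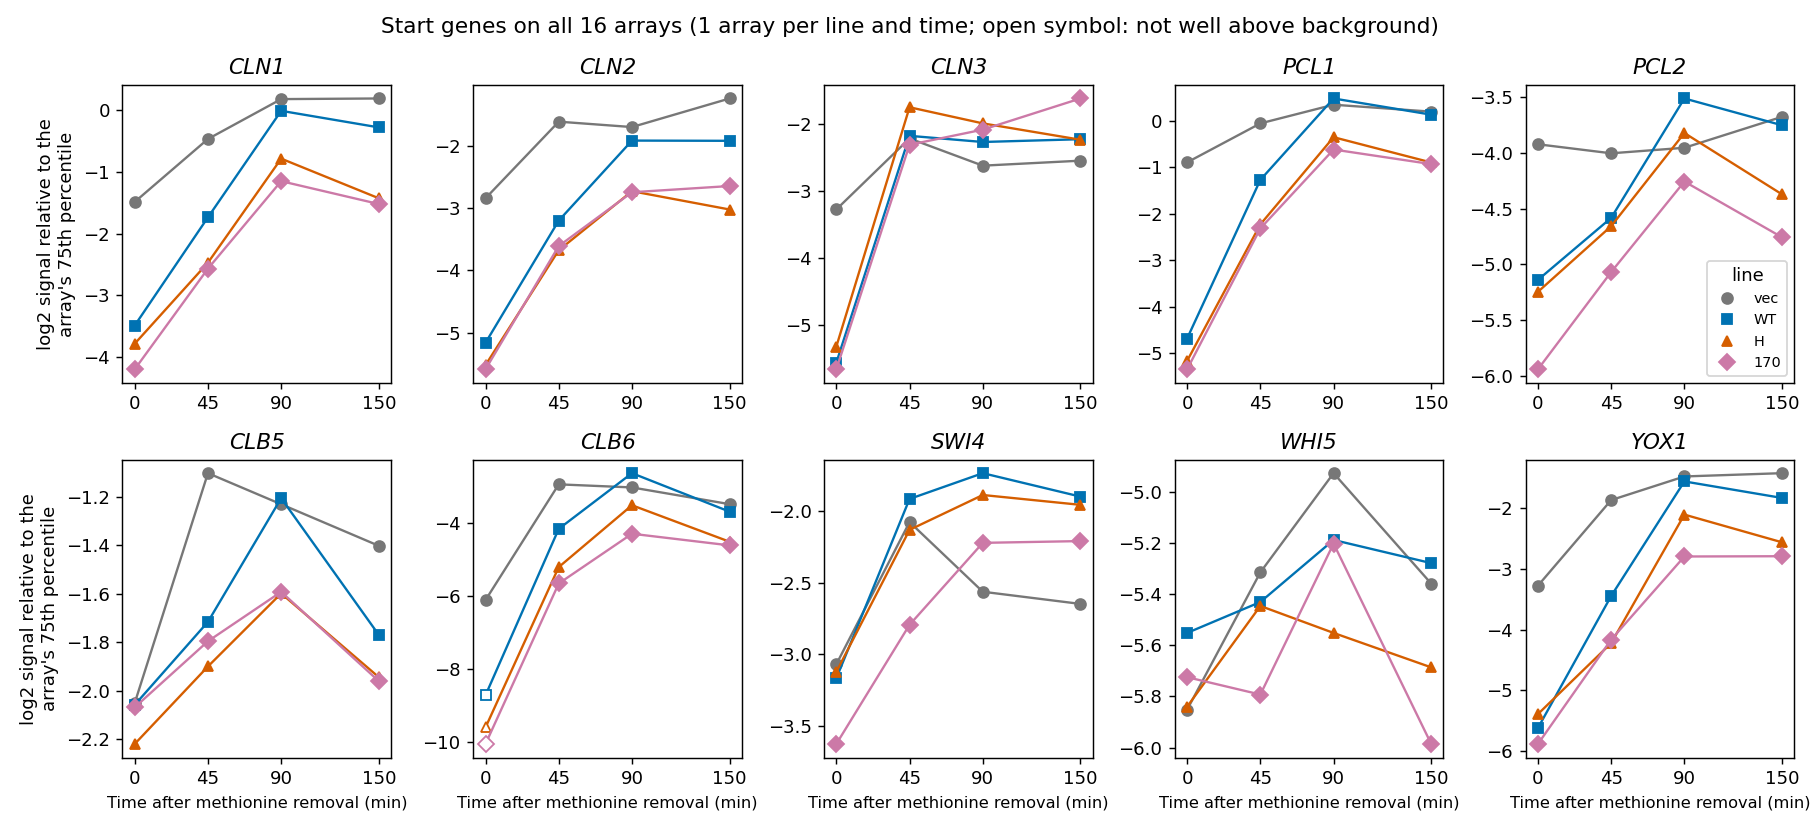
Level of each of the 10 Start genes (y axis, log2 of the processed signal relative to the array's 75th percentile) against time after methionine removal (x axis, min) in the 4 lines, 1 array per point, without error bars because no array was repeated and with open symbols where the probe was not well above background. Line vec starts far above the 3 HOG1 lines for PCL1, CLN1, CLN2, CLN3, CLB6 and YOX1 at 0 min, and CLN3 lies between -2.31 and -1.76 in all 4 lines by 45 min.

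From 45 to 90 min CLN1, PCL2 and YOX1 passed the test, where 24.5% of all genes were called in either direction. The number of calls depended on the lines kept. Of the 10 genes 0 were called without H, 1 without 170 and 8 without vec. Over all genes the share called moved the same way, to 3.49%, 4.66% and 40.4%. From 90 to 150 min none of the 10 genes was called by limma, with 2 at an unadjusted p under 0.05, while 3.76% of all genes were called. The median of the 10 genes fell by 0.29 in that interval, and without line vec 4 of them were called (all genes, 16.1%).

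After methionine removal most Start genes were lower in the mean of the mutant lines than in the mean of WT and vec. CLN1 was 2.46-fold, CLN2 2.21-fold, PCL1 2.29-fold, CLB6 2.48-fold and YOX1 2.25-fold lower in the mean of H and 170 than in the mean of WT and vec. Since each slide held 1 mutant line and 1 other line, this comparison is balanced over the slides. It does not separate WT from vec, and in H minus WT, within slide 1, only CLN1 of the 10 genes was called. The difference was also present at 0 min, when WT lay with H and 170 and vec apart. It then measured -1.50 log2 units for CLN1, -1.55 for CLN2, -2.47 for PCL1 and -1.19 for YOX1. Of the 10 genes 8 were lower and 0 were higher, against 19.7% of all genes called lower and 18.3% called higher, and the median of the 10 was -0.86 against -0.04 over all genes. CLN3 and SWI4, the upstream cyclin and the SBF subunit, were not called. Without the 150 min arrays 5 of the 10 were called (all genes, 20.3% in either direction, from 38.1%), and CLB5, PCL2 and WHI5 dropped out.

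The sizes were -1.30 ± 0.13 log2 units for CLN1 (SE, limma adjusted p = 2.13e-04), -1.14 ± 0.16 for CLN2 (7.37e-04) and -1.17 ± 0.20 for YOX1 (0.0019). For PCL1 the difference was -1.20 ± 0.18 and for CLB6 it was -1.31 ± 0.22, with limma adjusted p = 0.0012 and 0.0021. At 45, 90 and 150 min in turn it measured -1.42, -1.05 and -1.43 for CLN1, and -1.88, -1.07 and -0.98 for CLB6. For these 5 genes both mutant lines lay below both other lines at 3 of 3 times. Smaller differences were found for PCL2 (-0.57 ± 0.13, limma adjusted p = 0.0088), CLB5 (-0.39 ± 0.077, 0.0044) and WHI5 (-0.36 ± 0.10, 0.0214). CLB5 and WHI5 were lower in both mutant lines at 3 of 3 times and PCL2 at 2. The calls of CLB5, PCL2 and WHI5 were lost without 150 min (adjusted p = 0.0554, 0.124 and 0.155), and that of WHI5 also without 90 min (0.0688).

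CLN3 measured 0.34 ± 0.13 higher in the mutant lines (limma adjusted p = 0.0721), with differences of 0.17, 0.41 and 0.46 at 45, 90 and 150 min. Both mutant lines lay above both others at 90 min, and the lines overlapped at 45 and 150 min. CLN3 was called without the 45 min arrays (0.43, adjusted p = 0.0267) and with normexp background correction (0.36, 0.0343). SWI4 measured -0.06 ± 0.13 (limma adjusted p = 0.746) and changed sign between 45 min (-0.47) and the later times (0.09 and 0.19).

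**Figure D2:**
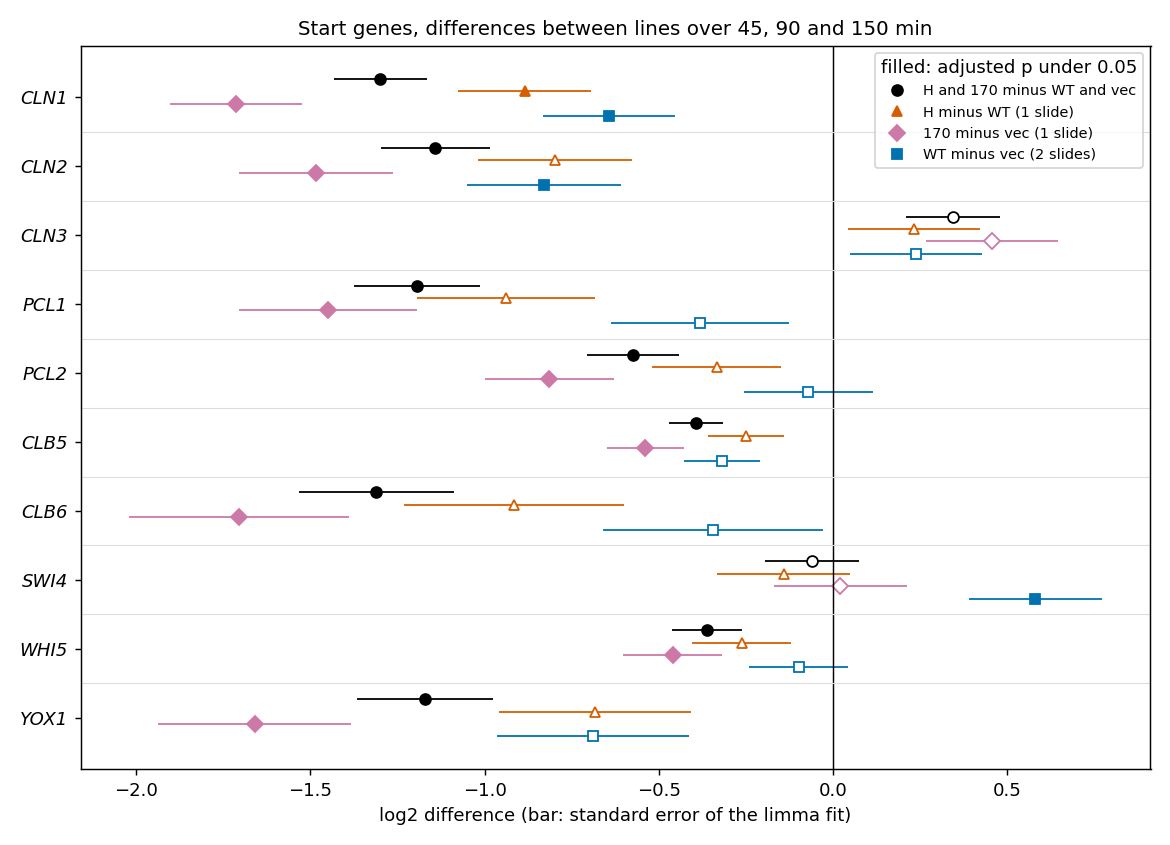
Log2 difference (x axis) between lines over 45, 90 and 150 min for each Start gene, with the standard error of the limma fit as bars and filled symbols for an adjusted p under 0.05. The mean of H and 170 minus the mean of WT and vec (black) is shown beside H minus WT and 170 minus vec, each within a slide, and WT minus vec, across slides; 8 of 10 black points lie left of 0 and are filled.

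Within slides, H minus WT and 170 minus vec gave different numbers of calls. In H minus WT, CLN1 was lower in H (-0.89 ± 0.19 log2 units, limma adjusted p = 0.0337) and was the only gene of the 10 called, against 1.67% of all genes called lower. PCL1 measured -0.94 (adjusted p = 0.0622), CLN2 -0.80 (0.0648), CLB6 -0.92 (0.109) and YOX1 -0.68 (0.153), each lower in H at 3 of 3 times. Without the 45 min arrays 5 of the 10 genes were called, and 15.7% of all genes in either direction. None of the 10 was called without 90 or without 150 min, where 0% and 0.0973% of all genes were called. On all 16 arrays, with terms for line and time, CLN1 was not called either (-0.74, adjusted p = 0.142), where 0.195% of all genes were called.

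In 170 minus vec, 8 of the 10 genes were lower, against 16.4% of all genes. CLN1 measured -1.71 ± 0.19, CLN2 -1.48 ± 0.22, YOX1 -1.66 ± 0.28, PCL1 -1.45 ± 0.26 and CLB6 -1.70 ± 0.32 (limma adjusted p between 3.31e-04 and 0.0038). Without the 150 min arrays 5 of the 10 were called. PCL2, CLB5 and WHI5 measured -0.81, -0.54 and -0.46, and these calls were lost without 150 min (adjusted p = 0.103, 0.0727 and 0.181); that of WHI5 was also lost without 45 min (0.0964) and without 90 min (0.0697), and on all 16 arrays (0.0967). CLN3 (0.46, adjusted p = 0.0981) and SWI4 (0.02, 0.949) were not called, but both were called higher in 170 without the 45 min arrays (0.73, adjusted p = 0.0182, and 0.39, 0.0155). That 170 minus vec gave more calls than H minus WT is not a test of a difference between these pairs, and none was run.

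The remaining pairs crossed slides, where slide and line cannot be told apart. In 170 minus WT, CLN1 (-1.07), PCL1 (-1.07), PCL2 (-0.74), CLB6 (-1.36) and YOX1 (-0.97) were lower, 5 of the 10 against 10.9% of all genes. None of the 10 was called without 90 or without 150 min, where 0% and 0.55% of all genes were called. In H minus vec, CLN1 (-1.53), CLN2 (-1.63), PCL1 (-1.32), CLB5 (-0.57), CLB6 (-1.26) and YOX1 (-1.37) were lower, 6 of the 10 against 24.6% of all genes. In WT minus vec, CLN1 (-0.64, limma adjusted p = 0.0333) and CLN2 (-0.83, 0.0227) were lower and SWI4 (0.58, 0.0481) was higher, against 12.8% and 16.9% of all genes. The WT minus vec calls were fragile: none of the 10 genes was called without 90 or without 150 min, and 1, SWI4, without 45 min. Over all genes 3.13%, 17.7% and 24.2% were called without 90, 150 and 45 min, from 29.7% in the main fit. The SWI4 call was also lost with median scaling, quantile normalization, no filter and all 16 arrays (adjusted p between 0.0508 and 0.0923). Between H and 170 limma called 0 of the 10 genes, also with 0 at an unadjusted p under 0.05, where 16.4% of all genes were called. Their difference was -0.14 ± 0.22 for CLN2 and 0.44 ± 0.32 for CLB6.

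The order of the lines over the later times, as mean ± SD of 3 times, was vec (-0.03 ± 0.38), WT (-0.68 ± 0.93), H (-1.56 ± 0.85) and 170 (-1.75 ± 0.73) for CLN1. For PCL1 it was vec (0.16 ± 0.20), WT (-0.22 ± 0.93), H (-1.16 ± 0.97) and 170 (-1.29 ± 0.90). For CLN2 it was vec (-1.52 ± 0.24), WT (-2.35 ± 0.74), 170 (-3.00 ± 0.53) and H (-3.14 ± 0.49). The SDs include the time course. Between the neighbours H and 170 none of these genes was called, and between H and WT only CLN1 was, in the fit with time as a term.

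At 0 min, when methionine was taken away, line vec stood apart for most Start genes. PCL1 was 13.8-fold lower in WT, 19.3-fold lower in H and 21.9-fold lower in 170 than in vec. CLN1, CLN2, CLN3, PCL2, CLB6 and YOX1 were lower in all 3 HOG1 lines as well, and CLB5, SWI4 and WHI5 were called in none. The same 7 genes were thus lower in each of the 3 differences, which share the single vec array, and the shares of all genes called lower were 13.0% for WT, 17.8% for H and 18.5% for 170. With 1 array per line at this time, the spread in these tests comes from the later arrays. WT and H also lie on the other slide than vec, and 170 on the same slide.

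On the shared slide, 170 minus vec measured -4.45 ± 0.44 log2 units for PCL1 (limma adjusted p = 3.17e-04), -2.71 ± 0.33 for CLN1 (6.69e-04) and -2.75 ± 0.38 for CLN2 (0.0012). CLN3 measured -2.38 ± 0.33, YOX1 -2.60 ± 0.48 and PCL2 -2.01 ± 0.32 (limma adjusted p = 0.0012, 0.0043 and 0.0023). In WT and H minus vec, across slides, CLN1 measured -2.00 and -2.30, PCL2 -1.21 and -1.32, CLN2 -2.32 and -2.68, CLN3 -2.29 and -2.05, and YOX1 -2.34 and -2.11. With the floor in place of the dim levels, CLB6 in vec was 4.71-fold above WT, 4.17-fold above H and 3.997-fold above 170. With another background correction, normexp, the CLB6 differences shrank to -0.68, -1.15 and -0.77 and were not called (adjusted p = 0.257, 0.0634 and 0.198). CLB5 measured -0.01, -0.17 and -0.02, SWI4 -0.10, -0.05 and -0.56, and WHI5 0.30, 0.01 and 0.13 in WT, H and 170 relative to vec.

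**Figure D3:**
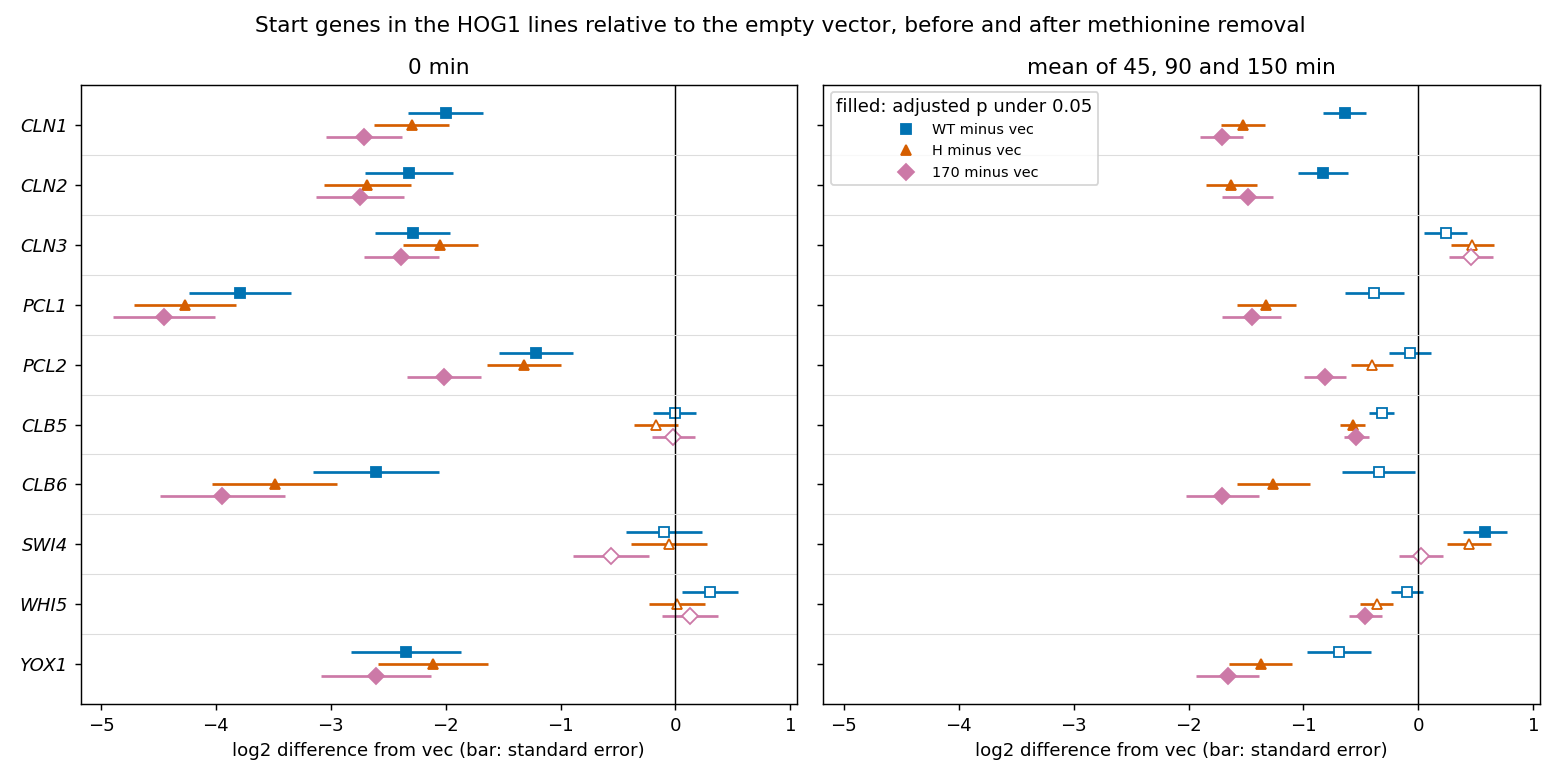
Log2 difference of WT, H and 170 from vec for each Start gene (x axis; bars, standard error of the limma fit) at 0 min and over the mean of 45, 90 and 150 min, with filled points for an adjusted p under 0.05. CLN3 lies near -2 in all 3 HOG1 lines at 0 min and at 0.24 to 0.47 afterwards, while CLN1 and CLN2 stay left of 0 in both panels; the CLB6 points at 0 min rest on arrays where it was not well above background.

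In the balanced comparison at 0 min 7 of the 10 genes were lower in the mean of H and 170, against 13.4% of all genes, but WT lay with H and 170 at this time and vec apart. CLN1 measured -1.50, CLN2 -1.55, CLN3 -1.07, PCL1 -2.47, PCL2 -1.06 and YOX1 -1.19 there; with normexp the YOX1 call was lost (-0.95, adjusted p = 0.0576), and that of CLB6 too (-0.62, 0.175). Within slide 1, H minus WT was -0.29 for CLN1 at 0 min and -0.73, -0.77 and -1.15 at 45, 90 and 150 min. For YOX1 it was 0.23 at 0 min and -0.78, -0.55 and -0.73 later, and for CLN3 it was 0.24 at 0 min and 0.43, 0.28 and -0.01 later.

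The change from 0 min to the later times differed from that of vec for CLN3 and PCL1 in each HOG1 line. CLN3 rose by 3.34, 3.33 and 3.66 in WT, H and 170 and by 0.81 in vec, a difference of 2.53, 2.52 and 2.84 log2 units (limma adjusted p = 0.0086, 0.0057 and 0.0024). PCL1 rose by 3.41, 2.95 and 3.001 more than in vec (0.0086, 0.0085 and 0.0058). All these CLN3 and PCL1 calls were lost without the 90 min arrays (adjusted p between 0.0550 and 0.162), and the PCL1 calls of WT and H also without 150 min (0.0645 and 0.0509), while the sizes kept between 2.44 and 3.25. Of the 10 genes 2 rose more in WT than in vec, 3 in H and 4 in 170, and 0 rose less, where 8.37%, 18.7% and 21.2% of all genes were called in either direction. The 3 comparisons share the vec arrays.

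CLN1 and CLN2 changed by 1.36 and 1.49 more in WT than in vec, 0.77 and 1.05 more in H, and 0.997 and 1.26 more in 170, with none called (limma adjusted p between 0.0600 and 0.186). YOX1 changed by 1.65, 0.74 and 0.94 more, and PCL2 by 1.14, 0.92 and 1.20 more, of which the last was called (adjusted p = 0.0495) and was lost without 90 or without 150 min (0.140 and 0.0952), with normexp background correction (0.77, 0.0978), with quantile normalization (0.0647) and with no filter on dim probes (0.0523). In the balanced comparison of changes, CLN3 rose 1.42 ± 0.27 log2 units more in the mean of H and 170 (limma adjusted p = 0.0157) and was the only gene called, against 12.8% of all genes called in either direction, and without 90 min it was not called (1.38, adjusted p = 0.165). CLN3 rose as much in WT as in H (3.34 and 3.33), and vec, at 0.81, stood apart from the other 3 lines. PCL1 measured 1.27 ± 0.36 (adjusted p = 0.0510). Removing 45 min raised the counts to 8, 7 and 8 of 10 in WT, H and 170 and to 4 in the balanced comparison, and removing 90 min brought each to 0. The shares of all genes moved the same way in WT and H. Removing 45 min raised them from 8.37% to 14.7% in WT and from 18.7% to 30.4% in H. Removing 90 min brought them to 0.0487% and 0.0973%.

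Lists of other cell-cycle genes were measured beside the 10. Of 14 genes known as SBF targets, which share the regulator of CLN1, CLN2, PCL1 and PCL2, 11 were lower in the mean of H and 170 after removal, 2 were higher and 1 was not called, where 19.7% of all genes were lower and 18.3% higher. The list's median was -0.66, against -0.04 over all genes. HO, the mating-type switching endonuclease, fell most (-1.62), followed by TOS2 (-1.07) and TOS6 (-0.96) and by CSI2 (-0.91). Of 23 MBF targets, mostly genes of DNA replication, 21 were lower, 1 was higher and 1 was not called (the same shares of all genes apply), with a median of -0.40. TOS4 (-1.15), the cohesin subunit gene MCD1 (-1.04), the ribonucleotide reductase gene RNR1 (-0.86) and PLM2 (-0.75) led them.

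Genes of other cell-cycle phases moved in the same direction. Of 14 G2/M genes 12 were lower in the mean of H and 170 and 2 were not called, against 19.7% of all genes lower. The median was -0.57, and the list was led by the mitotic cyclin genes CLB1 (-1.10) and CLB2 (-0.99) and by SWI5 (-0.93), a factor of the M/G1 boundary. Of 10 early M/G1 genes 5 were lower and 5 not called, with a median of -0.35. DSE1 (-1.65), DSE2 (-1.54), the chitinase gene CTS1 (-1.31) and EGT2 (-1.29), genes of daughter-cell separation, led them. After removal, H minus WT within slide 1 called 0 of the G2/M and 0 of the early M/G1 genes, with medians of -0.38 and -0.30. It called 1 SBF target lower and 1 higher, and 9 MBF targets lower, where 1.67% of all genes were lower and 281 of 6165 were higher. In 170 minus vec, within slide 2, 11 G2/M genes, 5 early M/G1 genes, 11 SBF targets and 19 MBF targets were lower (all genes, 16.4%). Higher there were 2 SBF targets and 1 MBF target, where 989 of all 6165 genes were higher. At 0 min 9 of the 14 G2/M genes, 13 of the 23 MBF targets and 8 of the 14 SBF targets were lower in the mean of H and 170. None was higher, where 13.4% of all genes were lower and 6.85% higher. WT lay with H and 170 at this time and vec apart. The median level of the SBF targets was 0.41 in vec, -0.90 in WT, -1.11 in H and -1.23 in 170. For the MBF targets it was -1.83, -2.19, -2.29 and -2.47 in the same order. The median level of the G2/M genes at 0 min was -1.58 in vec and between -3.12 and -2.96 in the other lines, and at 150 min it was -1.04 in vec, -1.03 in WT, -1.75 in H and -1.98 in 170. The part of cell-cycle distribution in the differences of the Start genes was not tested.

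Of 26 other genes of the Start machinery 5 were higher, 4 lower and 17 not called in the same comparison, with a median of -0.09. These counts lie near the shares of all genes, 18.3% higher and 19.7% lower, and the genes named here are single measurements. FAR1, the inhibitor of Cln-bound Cdc28 in the mating response, was lower (-1.21 ± 0.11, limma adjusted p = 1.26e-04), and so was YHP1 (-1.18 ± 0.14, 3.62e-04), the partner of Yox1 in repression. XBP1, a stress-induced repressor, was higher (1.16 ± 0.12, 2.03e-04), as was SRL3 (1.15 ± 0.079, 4.19e-05), also known as WHI7, a brake on Start. The counts of the lists over the alternatives ran from 7 to 13 called for SBF targets, 10 to 22 for MBF targets, 9 to 13 for G2/M genes, 4 to 5 for early M/G1 genes and 6 to 10 for the Start machinery.

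With time, 13 of 14 SBF targets and 23 of 23 MBF targets rose after methionine removal, with medians of 1.14 and 1.16 log2 units, where 34.8% of all genes rose and 44.2% fell. TOS6 (4.60) and CSI2 (3.08) rose most among SBF targets, and RNR1 (3.78) and the replication clamp gene POL30 (2.94) among MBF targets. Of the G2/M genes 12 rose and 1 fell, CLB2 by 2.88 log2 units up, and of the early M/G1 genes 8 rose, with CDC6, a replication licensing factor, first at 1.51. Of the 26 other genes of the Start machinery 7 rose and 6 fell, neither a larger share than over all genes. NRM1, the MBF corepressor (2.04), YHP1 (1.44) and CDC28 (1.42) rose, and RME1, an activator of CLN2 transcription, fell by 1.13.

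**Figure D4:**
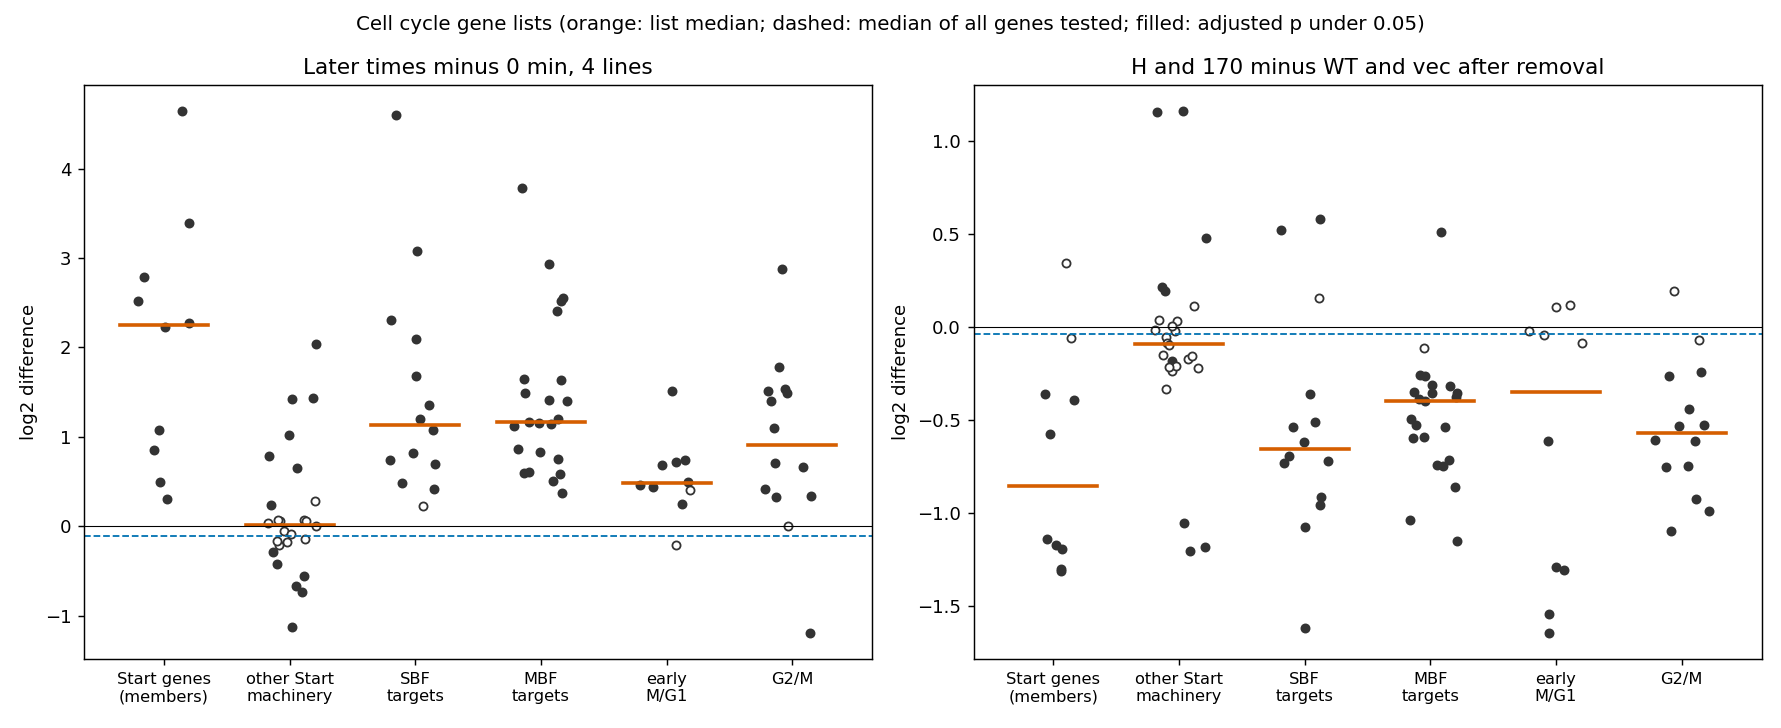
Log2 difference (y axis) of each gene of the 10 Start genes and of the lists of cell-cycle genes, 1 point per gene, over the later times minus 0 min (left) and in the mean of H and 170 minus the mean of WT and vec after removal (right). Points are filled for a limma adjusted p under 0.05, orange bars are list medians and the dashed line is the median of all genes tested; the medians of the Start genes are 2.26 on the left and -0.86 on the right, and the CLB6 point on the left rests on dim 0 min spots.

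The 10 genes did not follow a single pattern. Over the 16 arrays, which share slides and time course, Pearson's r between pairs ran from 0.30 for CLN3 and WHI5 to 0.99 for CLN1 and YOX1. CLN1 and CLN2 had r = 0.98 (Spearman's rho 0.95), whereas CLN1 and CLN3 had r = 0.73 but rho 0.25. After the mean of the 4 lines at each time was taken off, CLN1, CLN2, PCL1, PCL2, CLB6 and YOX1 still followed each other, with r between 0.87 and 0.98 for any pair of them. CLN3 then had r = 0.63 with PCL1, 0.53 with CLB6, 0.50 with PCL2, 0.36 with CLN1 and -0.40 with WHI5. Spearman's rho for these pairs was 0.28, 0.19, 0.16, 0.02 and -0.49. SWI4 had r between -0.12 and 0.41 with the other genes. These values describe 16 arrays, and 3 of the CLB6 values in them were not well above background.

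**Figure D5:**
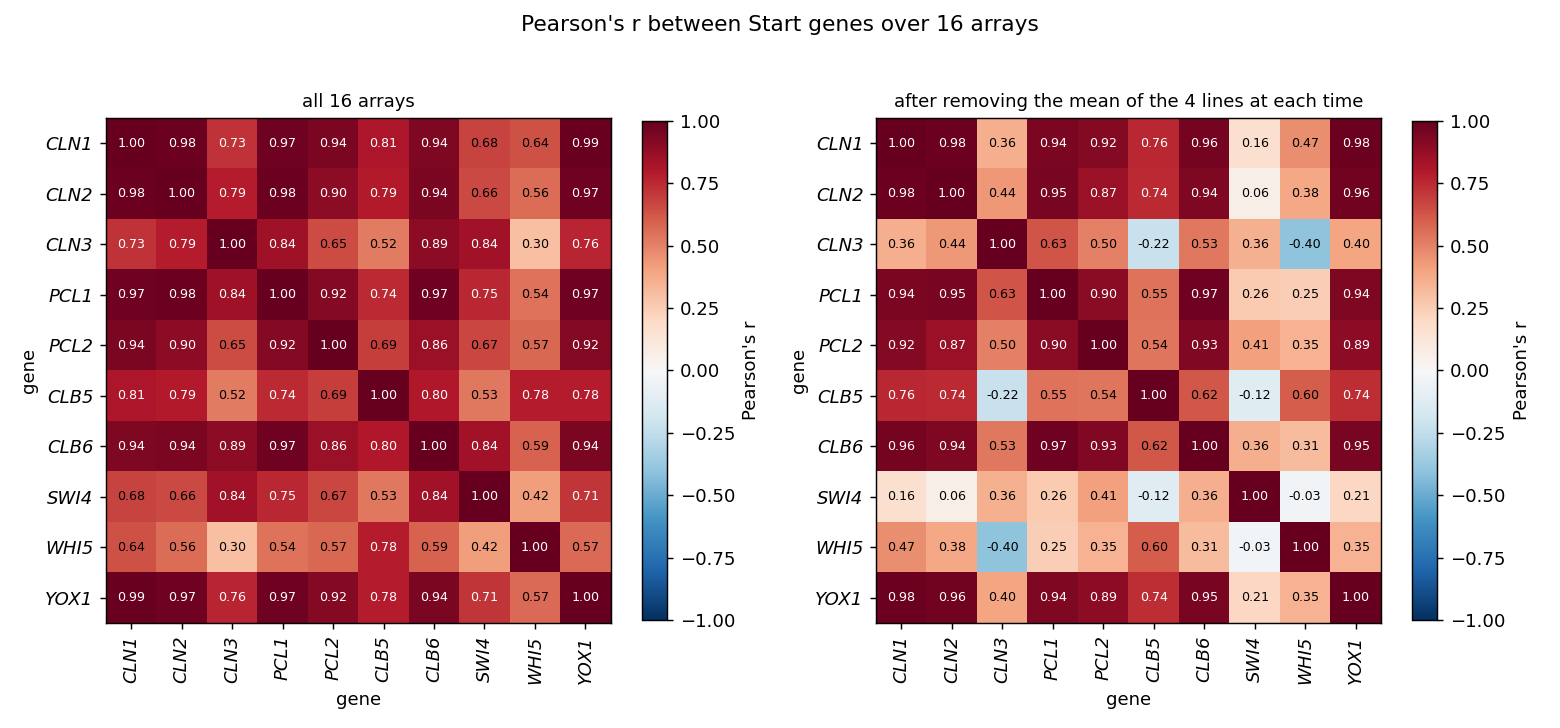
Pearson's r between the 10 Start genes over 16 arrays (left) and after the mean of the 4 lines at each time was taken off (right), coloured from -1 to 1 with the value in each cell. CLN1, CLN2, PCL1, PCL2, CLB6 and YOX1 keep r of 0.87 or more with each other on the right, while CLN3 has r of 0.36 to 0.63 with them.

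The genes whose levels were most like those of a Start gene over the 16 arrays were, for CLN1, ILM1 (r = 0.98), RTT109 (0.98) and TOS4 (0.98). GIC1 was most like CLN2 (0.98), CSI2 most like PCL1 (0.99), POL30 most like CLB6 (0.98) and SHE1 most like YOX1 (0.97). CLN3 was most like ALD6 (0.97), SWI4 most like MSA2 (0.95), CLB5 most like HIF1 (0.94), PCL2 most like MDM20 (0.93) and WHI5 most like MTW1 (0.84). In the pattern of lines within times TOS4, counted here in the MBF list, came first for CLN1 (0.99) and YOX1 (0.97), and POL30 for CLN2 (0.98). CSI2, counted here in the SBF list, came first for PCL1 (0.99), PCL2 (0.94) and CLB6 (0.97), and ALD6 again for CLN3 (0.93).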

How the data were processed

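Per the file headers, the single-colour (Cy3) Agilent arrays were read with Feature Extraction 10.7.1.1, and the deposited intensity of each spot is background-subtracted and not scaled between arrays. No extraction protocol is given in the labels. A deposited table of log2 values for 6107 probes, centred slide by slide as its values show, served as an alternative. Its differences between arrays of a slide correlated with those used here at 0.998 or above.

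Here, log2 of the processed intensity was averaged over the 2 spots of a probe, dropping a non-uniform spot whose partner was uniform, and the array's 75th percentile was subtracted. Genes were tested where 3 or more of the 16 arrays read well above background, which kept 6165 of 6227, and for 28 genes with several probes the brightest was taken. Symbols came from a RefSeq gene table (5738 matched) of another assembly than the header's build label, so no positions are given, and no sequence was used here.

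All genes were fitted with lmFit and eBayes of limma 3.58.1 (R 4.3.3, two-sided tests), with Benjamini-Hochberg adjustment over all 6165 and a threshold of 0.05, and called means past it. Changes with time used 16 arrays and a term for line, differences after removal the 12 later arrays and a term for time, and differences at 0 min and changes from it all 16 with time, line and line by later time. Tested on simulated data with 200 changed genes among 6165, the balanced comparison after removal found 74.6%, 98.5% and 100% of changes sized 0.5, 1 and 2 on the log2 scale, and the balanced change from 0 min found 17.9%, 77.6% and 93.9%. The 75th percentile scaling placed the median of all genes at -0.17 from 0 to 45 min, and median scaling placed it at -0.02; changes are relative to this.

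The 10 genes and the lists were chosen with earlier results of these data known. The rule named the 10 genes and HOG1, per list up to 4 genes with the largest change that passed the test and moved one way throughout, and the 3 genes most correlated with each of the 10. Alternatives changed the background (normexp, offset 50, on the median spot signal), scaling, filter, spots and probes, variance model, terms, values, slide, lines and times.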

Additional observations from a re-analysis of the deposited data

Results flagged for a closer look

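The change from 0 min to the later times differed between lines, by a test of that difference in 1 or more comparisons, for 4 of the 10 genes. Over all genes 8.37%, 18.7% and 21.2% were called in WT, H and 170 minus vec, and 12.8% in the balanced comparison. The share of all genes called in any of these comparisons was not counted. CLN3 rose by 2.53, 2.52 and 2.84 log2 units more in WT, H and 170 than in vec. It rose by 1.42 more in the mean of H and 170 than in the mean of WT and vec. In that comparison WT rose as much as H (3.34 and 3.33), and vec, at 0.81, stood apart. PCL1 rose by 3.41, 2.95 and 3.001 more in WT, H and 170 than in vec. PCL2 rose by 1.20 more in 170 than in vec, a call lost in 5 of 12 alternatives. For CLB6 the fitted difference from vec was 2.23 in H and 2.24 in 170, but its 0 min level there was not well above background. With that level raised to the lowest signal well above background, which is no strict bound, the differences were 0.80 and 0.29. With normexp the fitted differences were -0.0077 and -0.52. Each of these results rests on 1 array per line at 0 min, and the comparisons with vec share its arrays. Groups of 1 array allow no check for an outlying array within a group.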

How the results depend on the processing

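No paired analysis was possible because each line and time had 1 array, so there were no replicate numbers to pair by; the fits already match lines within a time, or times within a line, through their terms. Over the alternatives 1605 values for single genes kept their direction and their side of the threshold, 84 lost a call, 63 gained one and 18 changed sign. Numbers of the 10 genes called moved by more than 1.5 times as follows. Percentages beside them, where given, are the shares of all genes called in either direction in that setting. With terms for line and time on all 16 arrays, 170 minus WT gave 2 (13.0%) and H minus WT 0 (0.195%). With a variance trend H minus WT gave 2 (7.58%), the change from 0 min of WT minus vec 4 (9.51%) and the balanced change 2. With normexp H minus WT gave 3, the step from 45 to 90 min 6 and the change of 170 minus vec 2. With quantile normalization the change of WT minus vec gave 5 (14.9%) and the balanced change 2. The balanced change also gave 2 with the deposited value table and with the filter at 8 arrays. On the slide of WT and H alone the step from 45 to 90 min gave 7 (20.8%) and that from 90 to 150 min 1 (2.29%). On the slide of vec and 170 alone the step from 45 to 90 min gave 0 (0%) and that from 0 to 45 min 4 (46.7%, from 76.3% in the main fit). Leaving out 1 line gave 8 to 9 genes from 0 to 45 min (67.2% to 79.6%) and 0 to 8 from 45 to 90 min (3.49% to 40.4%). It gave 0 to 4 from 90 to 150 min (0% to 16.1%) and 9 to 10 over the later times (71.9% to 81.9%). Leaving out 1 time gave 0 to 1 for WT minus vec (3.13% to 24.2%) and 7 for H minus vec (21.5% to 50.3%). It gave 5 to 9 for 170 minus vec (9.36% to 34.7%) and 0 to 5 for H minus WT (0% to 15.7%). It gave 0 to 7 for 170 minus WT (0% to 22.9%) and 0 for H minus 170 (0.0162% to 15.2%). In the balanced comparison it gave 5 to 9 (10.4% to 45.1%). For the change from 0 min it gave 0 to 8 for WT minus vec (0.0487% to 14.7%) and 0 to 7 for H minus vec (0.0973% to 30.4%). It gave 0 to 8 for 170 minus vec and 0 to 4 in the balanced comparison.

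Of the 18 sign changes, 16 were of differences not called in either setting. On all 16 arrays CLN3 after removal became -0.39, -0.16 and -0.25 in WT, H and 170 minus vec and -0.0094 in the balanced comparison, SWI4 in 170 minus vec became -0.12, and WHI5 in WT minus vec 7.81e-04. Without 45 min, WT minus vec became positive for CLB6, PCL1 and PCL2, and leaving out 1 time gave ranges of -0.71 to 0.093 for CLB6, -0.64 to 0.035 for PCL1 and -0.33 to 0.18 for PCL2. The balanced difference of SWI4 became 0.14 without 45 min. SWI4 in 170 minus vec ran from -0.19 without 150 min, over -0.14 without 90 min, to 0.39 without 45 min and was -0.061 with normexp. At 0 min CLB5 in WT minus vec became 4.35e-04 with normexp, CLB5 in 170 minus vec 0.085 and WHI5 in H minus vec -0.045 with quantile normalization. The other 2, called before, were the changes of CLB6 from 0 min, which became -0.0077 in H minus vec and -0.52 in 170 minus vec with normexp. The 0 min spots of CLB6 were dim in H and 170, and normexp changed the spot signal and the background and added an offset. The cause of the sign changes was not tested.

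Among all genes called, the share called higher moved by over 10 percentage points with normexp in H minus WT (73.2% to 61.3%), 170 minus WT (38.7% to 51.4%), H minus 170 (59.3% to 38.8%) and the changes from 0 min of WT (68.8% to 48.8%) and H (64.1% to 53.5%) minus vec. With quantile normalization it moved in H minus 170 (to 49.2%) and in the changes from 0 min of WT (to 53.3%), H (to 50.1%) and 170 (64.3% to 50.4%) minus vec and the balanced change (67.8% to 52.9%), and with median scaling in H minus 170 (to 48.8%). The step from 45 to 90 min turned from 56.8% higher to 39.3% with median scaling and 44.9% with quantile normalization, which at 0 min also moved the balanced comparison (33.7% to 45.9%) and 170 minus vec (39.7% to 49.95%). Each comparison rests on 1 array per line and time, so culture-to-culture spread is unknown.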
